A study of Mus musculus with 9 samples.

Results

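The 10 genes described here, Nbeal2, Vps33b, Slc35d3, Lyst, Slc17a9, Rab27b, Unc13d, Vamp8, Stx11 and Stxbp2, build, load and release the granules of megakaryocytes and platelets. They were chosen by name for that role, with earlier results of these data known. Matched to the gene names of the array, they are 10 of the 29410 genes tested and are read by 21 probes. All 10 passed the filter on dim probes. The samples were mature megakaryocytes (mMKs) from the bone marrow of male mice, enriched through the surface proteins CD41 and then CD42d, so signal of the genes for these proteins (Itga2b and Gp5) is no finding. Control mice (Ctrl) were sham-irradiated, and the other groups were taken 1 day (1 dpi) or 3 days (3 dpi) after a single total-body dose of 5 Gy γ-rays (IR). Each group had 3 arrays, from separate experiments with different donors. The study's methods describe wild-type C57BL/6 mice for its control and IR groups, and the labels of these arrays give neither strain nor age. Each array measured 1 colour.

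Platelets inherit their granules from the megakaryocyte. Alpha granules carry adhesive and clotting proteins and growth factors, and dense granules carry small molecules such as ADP, ATP, serotonin and calcium. Both are lysosome-related organelles that mature through multivesicular bodies, and both are released when a SNARE protein on the granule pairs with SNARE proteins on the plasma membrane, after a RAB GTPase and its effectors have docked the granule. Inherited loss of several of these genes causes bleeding or immune disease, since cytotoxic lymphocytes use much of the same release machinery.

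Values are log2 processed signal minus the 75th percentile of the array, so 0 is the level of that percentile, and a difference of 1 is a 2-fold difference. The brightest probe of a gene stood for it. A gene passed the test when its adjusted p was under 0.05, and it was called when it also differed at least 2-fold. Levels of different probes are not compared.

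At 1 dpi, 4 of the 10 genes (Slc35d3, Rab27b, Vps33b and Lyst) fell and 0 rose, and 0 were called. Of all 29410 genes, 34.8% passed the test as higher and 21.1% as lower at 1 dpi, and 12.3% were called higher and 2.87% lower. At 3 dpi, 5 of the 10 genes (Slc35d3, Rab27b, Vps33b, Nbeal2 and Slc17a9) were lower than in Ctrl, 0 were higher, and 1, Slc35d3, was called. The shares of all genes at 3 dpi were 16.9% higher and 15.1% lower by the test alone, and 6.98% higher and 1.82% lower among those called. Between the irradiated groups, 3 genes (Slc35d3, Nbeal2 and Slc17a9) were lower at 3 dpi than at 1 dpi, 1 (Lyst) was higher, and 1 (Slc35d3) was called lower, against 24.9% lower and 19.8% higher of all genes by the test alone and 4.82% lower and 3.97% higher among those called. Both comparisons with Ctrl use the same 3 control arrays. These counts are read only against those shares. Arrays of the 2 groups did not overlap for 67.5% of all genes at 1 dpi, 47.0% at 3 dpi and 65.5% between the irradiated groups, so a lack of overlap in 1 gene is common. The median log2 fold change of the 10 genes was -0.07 at 1 dpi, -0.18 at 3 dpi and -0.06 for 3 dpi against 1 dpi, beside medians over all genes of 0.25, 0.11 and -0.11.

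**Figure D1:**
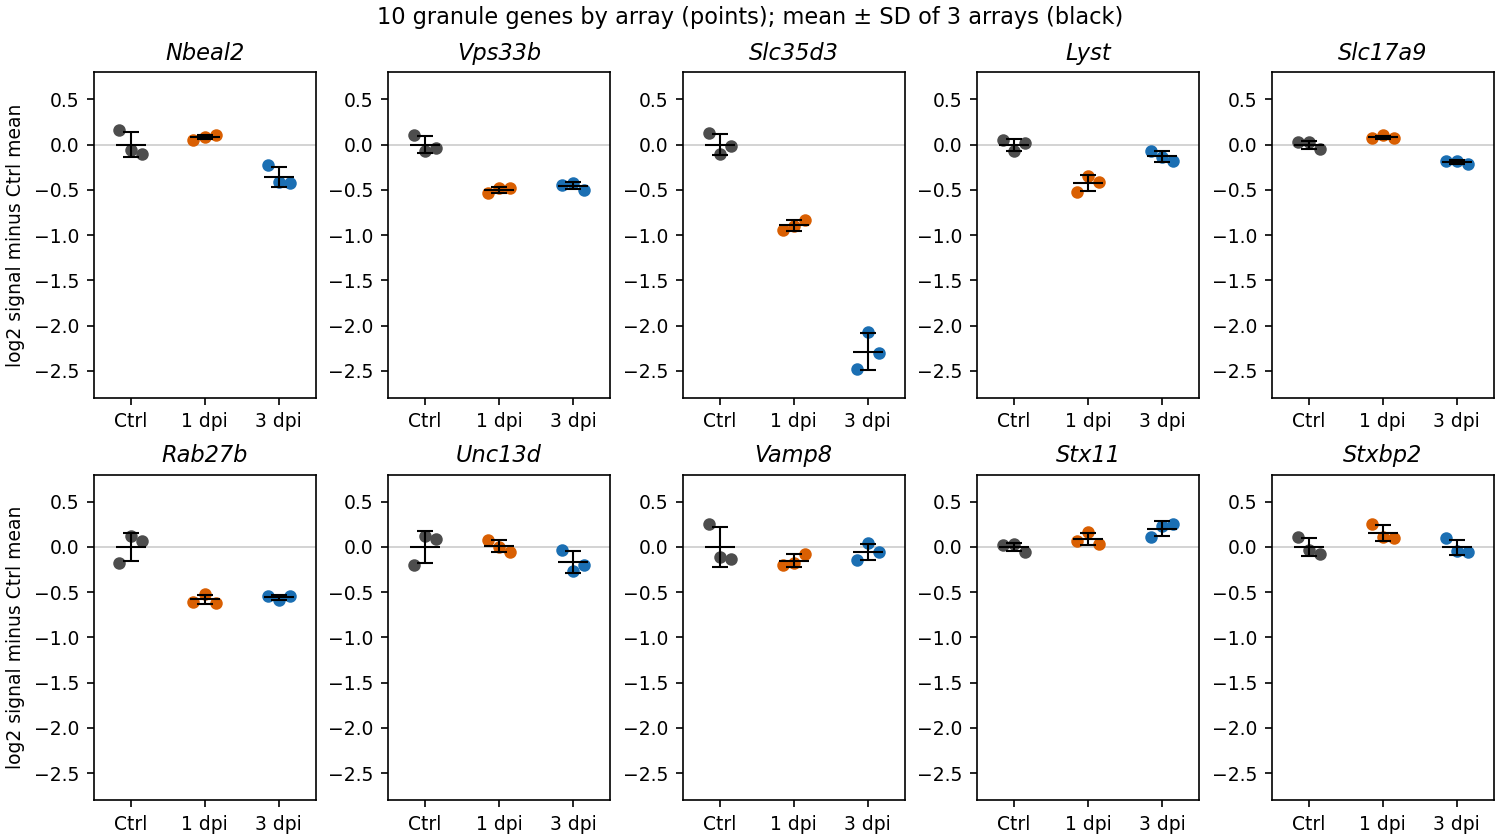
Log2 signal of the brightest probe of each of the 10 genes, minus its Ctrl mean (vertical axis), by group (horizontal axis). Points are arrays, and black bars are the mean and SD of 3 arrays. Slc35d3 falls by 0.89 at 1 dpi and by 2.29 at 3 dpi, and no other gene moves by more than 0.58 from Ctrl.

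The largest difference among the 10 genes was in Slc35d3, a member of a nucleotide sugar transporter family whose loss in mice leaves platelets short of dense granules. It is read by 1 probe, at chr10:19567898-19567957 on the minus strand (mm9). The first 30 of its 60 bases are shown because the result rests on this probe alone.
Slc35d3 probe: ctgaatgctataacctttaaaaaacccatt
The 250 bases before the RefSeq start of the gene (GRCm38.p6, chr10:19851460-19851709, minus strand) are shown to let the control region of the gene that moved most be read, with the searched words in capitals.
Slc35d3 promoter: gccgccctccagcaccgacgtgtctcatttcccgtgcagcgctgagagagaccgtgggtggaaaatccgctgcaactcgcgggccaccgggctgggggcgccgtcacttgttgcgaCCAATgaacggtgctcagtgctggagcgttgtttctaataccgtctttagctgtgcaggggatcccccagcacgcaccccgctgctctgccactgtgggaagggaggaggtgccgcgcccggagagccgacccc
On either strand, it holds CCAAT 1 time, beginning 134 bases before the start, and 33.8% of the 32851 promoters of the RefSeq table hold this word in the same window. It holds 0 matches to the other words searched, which were GATAA (found in 22.6% of promoters), the word CCGGAA (in 12%), the word TGTGGT (in 14%) and the word TGAGTCA (in 4.46%). Its GC content was 65.6%, against a median of 52.4%. The table had a promoter for 6 of the 10 genes, of which 2 (Lyst and Slc35d3) hold CCAAT and 1 (Nbeal2) holds GATAA. A match describes letters and no binding.

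Slc35d3 signal was 0.58, 0.35 and 0.44 on the Ctrl arrays, -0.49, -0.44 and -0.37 at 1 dpi, and -2.02, -1.61 and -1.85 at 3 dpi. The 3 groups did not overlap, with every 1 dpi array below every Ctrl array and every 3 dpi array below both. The mean was 0.46 ± 0.12 (SD, n = 3) in Ctrl, -0.43 ± 0.06 at 1 dpi and -1.83 ± 0.21 at 3 dpi. It fell by 0.89 (SE 0.11) at 1 dpi, with adjusted p = 0.000458, which is 53.9% of the Ctrl level. It fell by 2.29 (SE 0.11) at 3 dpi, with adjusted p = 4.57e-06, which is 20.5% of the Ctrl level, and 0.207% of all genes had a lower fold change. From 1 to 3 dpi it fell by 1.40 (SE 0.11), with adjusted p = 9.53e-05. Its size at 1 dpi lies near the 2-fold limit: relative to the median of all genes it was -1.14, and scaled to the array median it was -1.21, and it was called in both cases. From 1 gene in bulk samples, fewer cells of a type and less RNA per cell cannot be told apart.

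Markers of other cells moved with the groups. All 17 megakaryocyte markers were well above background on all 9 arrays. Their summed signal, in units of the array's 75th percentile, was 180, 159 and 158 on the Ctrl arrays, 166, 154 and 151 at 1 dpi, and 174, 171 and 169 at 3 dpi, with Pf4, a platelet chemokine, as the brightest gene. Of these 17 genes, 4 rose and 5 fell at 1 dpi, and 7 rose and 2 fell at 3 dpi, with 0 called in either and medians of -0.09 and 0.06, and from 1 to 3 dpi 8 rose and 1 fell, with a median of 0.26. These counts include the sort genes Itga2b and Gp5. Of the other 15 markers, 3 rose and 4 fell at 1 dpi, 7 rose and 2 fell at 3 dpi, and 8 rose and 0 fell from 1 to 3 dpi, again with 0 called, and their medians were -0.09, 0.14 and 0.31. Their sums were 178, 157 and 156 in Ctrl, 164, 151 and 148 at 1 dpi, and 172, 170 and 168 at 3 dpi. All 10 neutrophil markers (brightest Mpo) were well above background on all arrays, and their sum was 1101, 1189 and 1175 in Ctrl, 2011, 1872 and 1844 at 1 dpi, and 1239, 1110 and 1171 at 3 dpi. The 8 mast cell and basophil markers (brightest Prss34) summed to 129, 114 and 107.3 in Ctrl, 373, 376 and 372 at 1 dpi, and 241, 227 and 219 at 3 dpi, with 7 of 8 above background on all 9 arrays and Mcpt4 on 2 of the 3 Ctrl arrays. A sum follows the brightest genes of its list. Of the neutrophil markers, 9 fell and 0 rose from 1 to 3 dpi, and of the mast cell and basophil markers 3 fell and 1 rose.

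The 10 macrophage markers (brightest Csf1r) summed to 61.0, 54.6 and 52.5 in Ctrl, 80.0, 75.2 and 79.2 at 1 dpi, and 143, 140 and 138 at 3 dpi. At 1 dpi 6 of these 10 rose, 4 of them called, and 3 fell, 1 of them called. At 3 dpi all 10 were higher than in Ctrl. The 10 cytotoxic lymphocyte markers (brightest Nkg7) summed to 32.2, 33.4 and 31.7 in Ctrl, 47.5, 44.7 and 45.1 at 1 dpi, and 42.7, 39.5 and 38.2 at 3 dpi. Nkg7 fell from 1 to 3 dpi while 6 of these 10 rose, 4 of them called, with a median of 0.71, so the sum does not show the direction of most of the list. All 20 macrophage and cytotoxic genes were well above background on all 9 arrays. The 7 stromal markers (brightest Cxcl12) summed to 8.91, 8.50 and 8.98 in Ctrl, 49.7, 42.7 and 46.5 at 1 dpi, and 90.3, 82.8 and 89.4 at 3 dpi. The 6 endothelial markers (brightest Stab2) summed to 2.38, 2.10 and 2.15 in Ctrl, 3.97, 3.57 and 3.74 at 1 dpi, and 8.25, 6.83 and 7.05 at 3 dpi. At 1 dpi 4 of these 6 rose and 1 (Tek) fell, by 0.91, and at 3 dpi 4 rose and 0 fell. All 13 stromal and endothelial markers were above background on all arrays too, and the stromal sum moved most. The 8 B cell markers (brightest Cd79b) summed to 28.9, 27.3 and 28.0 in Ctrl, 5.81, 5.56 and 5.73 at 1 dpi, and 5.52, 5.37 and 5.35 at 3 dpi. Of these 8, 7 fell and 1 (Pax5) rose at 1 dpi, and 7 fell and 0 rose at 3 dpi. From 1 to 3 dpi 4 rose and 3 fell, with a median of 0.19, unlike the sum. The 8 erythroid markers (brightest Hba-a1, an alpha globin) summed to 105, 85.4 and 88.6 in Ctrl, 245, 200 and 197 at 1 dpi, and 33.5, 33.3 and 30.7 at 3 dpi. At 1 dpi 3 of these 8 rose and 5 fell, with a median of -1.68, unlike the sum. Several of the 10 granule genes also serve neutrophils, mast cells, basophils and cytotoxic lymphocytes. The part of these other cells in the values of the 10 genes was not tested.

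**Figure D2:**
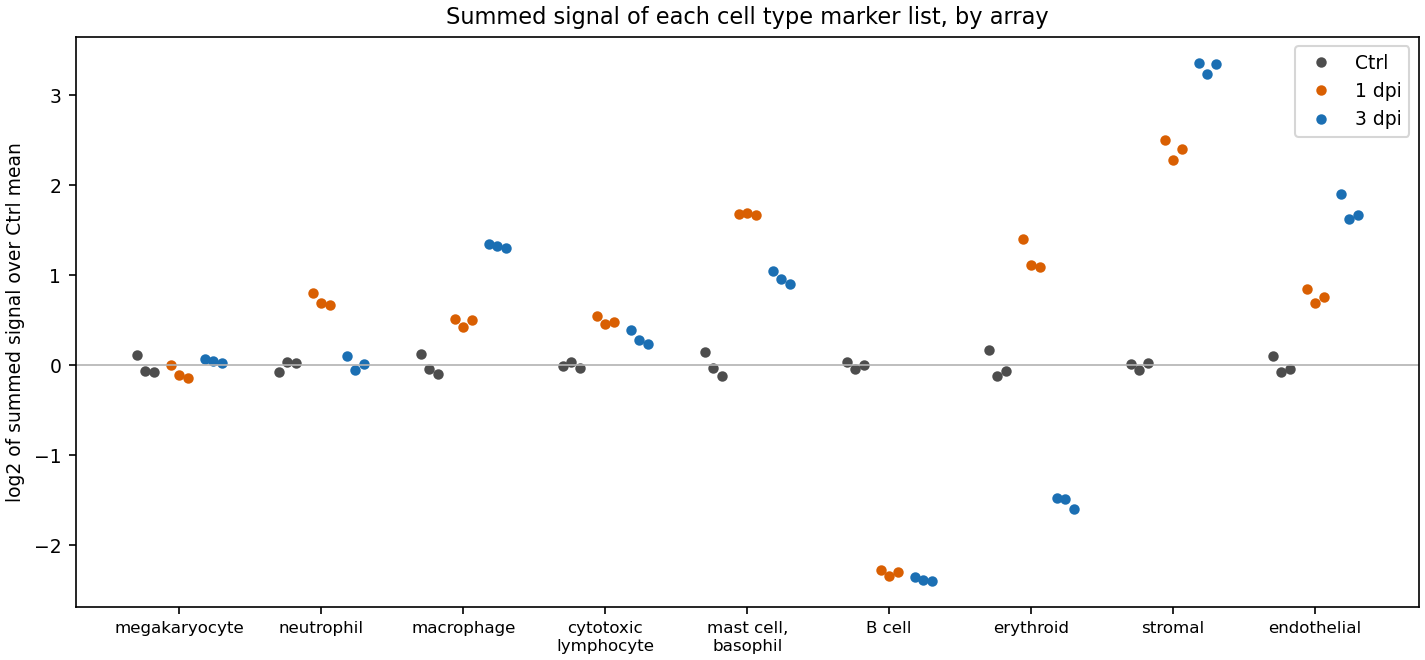
Summed signal of each of 9 cell type marker lists over its Ctrl mean, on a log2 scale (vertical axis), for each list (horizontal axis). Points are arrays, in grey for Ctrl, orange for 1 dpi and blue for 3 dpi. The megakaryocyte sums stay near 0, while the stromal sums rise and the B cell sums fall in both irradiated groups.

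Array-wide signal and spike-in controls also differed by group. The median intensity of the 350 spike-in spots was 4167, 3857 and 3900 on the Ctrl arrays, 7154, 7045 and 6250 at 1 dpi, and 3847, 4058 and 3849 at 3 dpi. The 75th percentile of log2 signal was 10.03, 10.62 and 10.66 in Ctrl, 9.33, 9.45 and 9.43 at 1 dpi, and 10.37, 10.55 and 10.53 at 3 dpi. The 1 dpi arrays thus had the brightest spike-ins and the lowest percentile, and the part of this in the results was not tested. Ctrl replicate 1 was on a slide of its own, and the other 8 arrays shared 1 slide. On Ctrl replicate 1, 69.1% of spots were well above background, against 79.5% and 80.8% on the other Ctrl arrays. With slide as a block, which for this layout is the fit without Ctrl replicate 1 and so gives the values within the shared slide, Slc35d3 fell by 0.83 at 1 dpi and by 2.23 at 3 dpi.

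The genes of alpha granule biogenesis are described first. Nbeal2 encodes a BEACH domain protein whose loss causes gray platelet syndrome, in which alpha granules are missing. Its signal was 1.73, 1.52 and 1.47 in Ctrl, 1.63, 1.66 and 1.68 at 1 dpi, and 1.34, 1.15 and 1.15 at 3 dpi. The 3 dpi arrays lay below all others, and those of Ctrl and 1 dpi overlapped. Nbeal2 fell by 0.36 (SE 0.09) at 3 dpi, with adjusted p = 0.0183, and by 0.44 from 1 to 3 dpi, with adjusted p = 0.00569 (-0.25, adjusted p = 0.267 scaled to the array median). Its difference at 1 dpi was 0.08 (SE 0.09), with adjusted p = 0.446. The 3 dpi difference from Ctrl did not pass without 3 dpi replicate 2 (-0.32, adjusted p = 0.0689), without 3 dpi replicate 3 (-0.32, adjusted p = 0.0672) or scaled to the array median (-0.48, adjusted p = 0.0603).

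Vps33b encodes a Sec1/Munc18 family protein that works with Vipas39 to sort cargo to alpha granules. Its brightest probe gave 2.28, 2.11 and 2.14 in Ctrl, 1.64, 1.69 and 1.70 at 1 dpi, and 1.73, 1.75 and 1.68 at 3 dpi. Both irradiated groups lay below Ctrl and overlapped each other. It fell by 0.50 (SE 0.07) at 1 dpi, with adjusted p = 0.000541, and by 0.46 (SE 0.07) at 3 dpi, with adjusted p = 0.00131. Scaled to the array median its 1 dpi difference was -0.81, with adjusted p = 0.00188. A dimmer probe for a predicted transcript of the gene gave -5.31, -5.37 and -5.32 in Ctrl, -4.56, -4.57 and -4.61 at 1 dpi, and -5.66, -5.48 and -5.86 at 3 dpi. This probe rose by 0.75 (SE 0.10) at 1 dpi, with adjusted p = 0.000473, and fell by 0.33 (SE 0.10) at 3 dpi, with adjusted p = 0.0325, so the 2 probes moved in opposite directions at 1 dpi. The first 30 of 60 bases of each are shown to tell them apart. The brightest lies at chr7:87436329-87436388 and the dimmer 1 spans chr7:87419562-87427374, both on the plus strand of mm9.
Vps33b brightest probe: catgtcctatcctccaggatactcctcttg
Vps33b dimmer probe: ccaatgaacattttatgcatgtgaggtggt
The dimmer probe's coordinates cover more than its own length, and why the probes differ was not tested.

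Of the dense granule genes besides Slc35d3, Lyst, the lysosomal trafficking regulator that is lost in Chediak-Higashi syndrome, had 5 probes. The brightest, at chr13:13839737-13839796 (mm9, plus strand), gave 1.87, 1.74 and 1.83 in Ctrl, 1.29, 1.46 and 1.40 at 1 dpi, and 1.74, 1.68 and 1.63 at 3 dpi. The 1 dpi arrays lay below all others. By this probe Lyst fell by 0.43 (SE 0.07) at 1 dpi, with adjusted p = 0.00165 (-0.74, adjusted p = 0.00246 scaled to the array median). It was 0.30 (SE 0.07) higher at 3 dpi than at 1 dpi, with adjusted p = 0.0112. Its 3 dpi difference from Ctrl was -0.13, with adjusted p = 0.207. That difference passed with the mean of all probes (-0.24, adjusted p = 0.0200), relative to the median of all genes (-0.24, adjusted p = 0.0302) and in the deposited table, which holds a dimmer probe (-0.99, adjusted p = 0.00364). The second probe by brightness also fell at 1 dpi, by 0.22, with adjusted p = 0.0272. The third gave the opposite sign, 0.29 higher at 1 dpi with adjusted p = 0.00466, and it fell by 0.52 at 3 dpi, with adjusted p = 0.000424. The fourth was 0.50 higher at 1 dpi, with adjusted p = 0.0611, and its arrays at 3 dpi ranged from -1.43 to -0.67. The dimmest, at chr13:13742332-13742391 (mm9, plus strand), fell by 0.81 (SE 0.14) at 3 dpi, with adjusted p = 0.00340. Its 1 dpi difference was -0.26, with adjusted p = 0.153. In the deposited table, which holds this probe, Lyst was also lower at 1 dpi (-0.66, adjusted p = 0.0158). The brightest and dimmest probes are shown, as the first 30 of 60 bases. The brightest passed as lower at 1 dpi and the dimmest at 3 dpi, and a difference in timing was not tested.
Lyst brightest probe: gcactgaagtgctccagtcagtgaagagtt
Lyst dimmest probe: ctcaggccttgtagtttaaagcatttaata
No single direction for Lyst holds over its 5 probes.

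Slc17a9 encodes the vesicular nucleotide transporter, which loads ATP and ADP into secretory vesicles. Its signal was 2.13, 2.13 and 2.06 in Ctrl, 2.18, 2.21 and 2.18 at 1 dpi, and 1.93, 1.92 and 1.89 at 3 dpi. The groups did not overlap, although the differences were small. It fell by 0.19 (SE 0.05) at 3 dpi, with adjusted p = 0.0262, and by 0.27 from 1 to 3 dpi, with adjusted p = 0.00423 (-0.08, adjusted p = 0.640 scaled to the array median). The fall at 3 dpi did not pass without Ctrl replicate 2 (-0.18, adjusted p = 0.0848), without 1 dpi replicate 2 (-0.19, adjusted p = 0.0515), without 3 dpi replicate 2 (-0.19, adjusted p = 0.0761) or without 3 dpi replicate 3 (-0.18, adjusted p = 0.0867). It did not pass either with no filter on dim probes (-0.19, adjusted p = 0.0566), or, with larger differences, scaled to the array median (-0.32, adjusted p = 0.102) and in the deposited table (-0.45, adjusted p = 0.0759). Its dimmer probe was 0.30 lower at 3 dpi, with adjusted p = 0.104.

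The release machinery includes Rab27b, a small GTPase that docks dense granules. Its brightest probe gave 0.54, 0.83 and 0.78 in Ctrl, 0.11, 0.20 and 0.10 at 1 dpi, and 0.18, 0.13 and 0.18 at 3 dpi. Both irradiated groups lay below Ctrl and overlapped each other. It fell by 0.58 (SE 0.09) at 1 dpi, with adjusted p = 0.000942, and by 0.55 (SE 0.09) at 3 dpi, with adjusted p = 0.00186. Scaled to the array median its 1 dpi difference was -0.90, with adjusted p = 0.000144. A second probe fell by 0.59 (SE 0.07) at 1 dpi and by 0.68 (SE 0.07) at 3 dpi, with adjusted p = 0.000299 and 0.000216. The third and dimmest probe was higher at 1 dpi, with adjusted p = 0.00662, and higher without passing at 3 dpi, with adjusted p = 0.221. No size is given, since this probe was well above background on only 2 of the 3 Ctrl arrays. So 2 of the 3 probes fell, and the dimmest went the other way.

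Unc13d encodes Munc13-4, which primes granules for fusion together with RAB27. Its brightest probe gave 2.61, 2.93 and 2.90 in Ctrl, 2.89, 2.82 and 2.75 at 1 dpi, and 2.78, 2.55 and 2.61 at 3 dpi, and the groups overlapped. The differences were 0.01 at 1 dpi and -0.17 at 3 dpi, with adjusted p = 0.959 and 0.269. Scaled to the array median the former was -0.31, with adjusted p = 0.0311, and without Ctrl replicate 1 the latter was -0.27, with adjusted p = 0.0417. A dimmer probe fell by 0.25 at 1 dpi, with adjusted p = 0.00952.

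Differences of the SNARE genes and their chaperone from Ctrl did not pass the test by the brightest probes. Vamp8, the main granule SNARE of platelets, had signal from 3.71 to 4.17 over the 9 arrays, with -0.15 (SE 0.11) at 1 dpi and -0.05 (SE 0.11) at 3 dpi. Its 95% intervals were -0.42 to 0.11 and -0.32 to 0.21, and the adjusted p were 0.277 and 0.739. With quantile normalization Vamp8 fell by 0.31 at 1 dpi, with adjusted p = 0.0477, with normexp as well by 0.29, with adjusted p = 0.0287, and relative to the median of all genes it was -0.40, with adjusted p = 0.0196. Stx11, the plasma membrane partner of Vamp8, gave 2.88, 2.89 and 2.80 in Ctrl, 2.92, 3.02 and 2.89 at 1 dpi, and 2.97, 3.09 and 3.11 at 3 dpi. Its 3 dpi difference was 0.20 (SE 0.07), with adjusted p = 0.0583, although the 3 dpi arrays lay above all Ctrl arrays, and without 3 dpi replicate 1 it was 0.25, with adjusted p = 0.0320. It also passed among genes well above background on all 9 arrays (adjusted p = 0.0431). The Stx11 difference between the irradiated groups was 0.11, with adjusted p = 0.207, and it passed in the deposited table (0.49, adjusted p = 0.0271), with the mean of all probes (0.31, adjusted p = 0.0332) and relative to the median of all genes (0.23, adjusted p = 0.0294). A second Stx11 probe was 0.37 lower at 1 dpi, with adjusted p = 0.0547, and rose by 0.51 from 1 to 3 dpi, with adjusted p = 0.0199. Stxbp2 encodes Munc18-2, the chaperone of Stx11, and its difference was 0.15 (SE 0.08) at 1 dpi and -0.002 at 3 dpi, with adjusted p = 0.135 and 0.986. Without Ctrl replicate 1 the former was 0.21, with adjusted p = 0.0473. Loss of Unc13d, Stx11 or Stxbp2 causes a form of hemophagocytic lymphohistiocytosis.

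**Figure D3:**
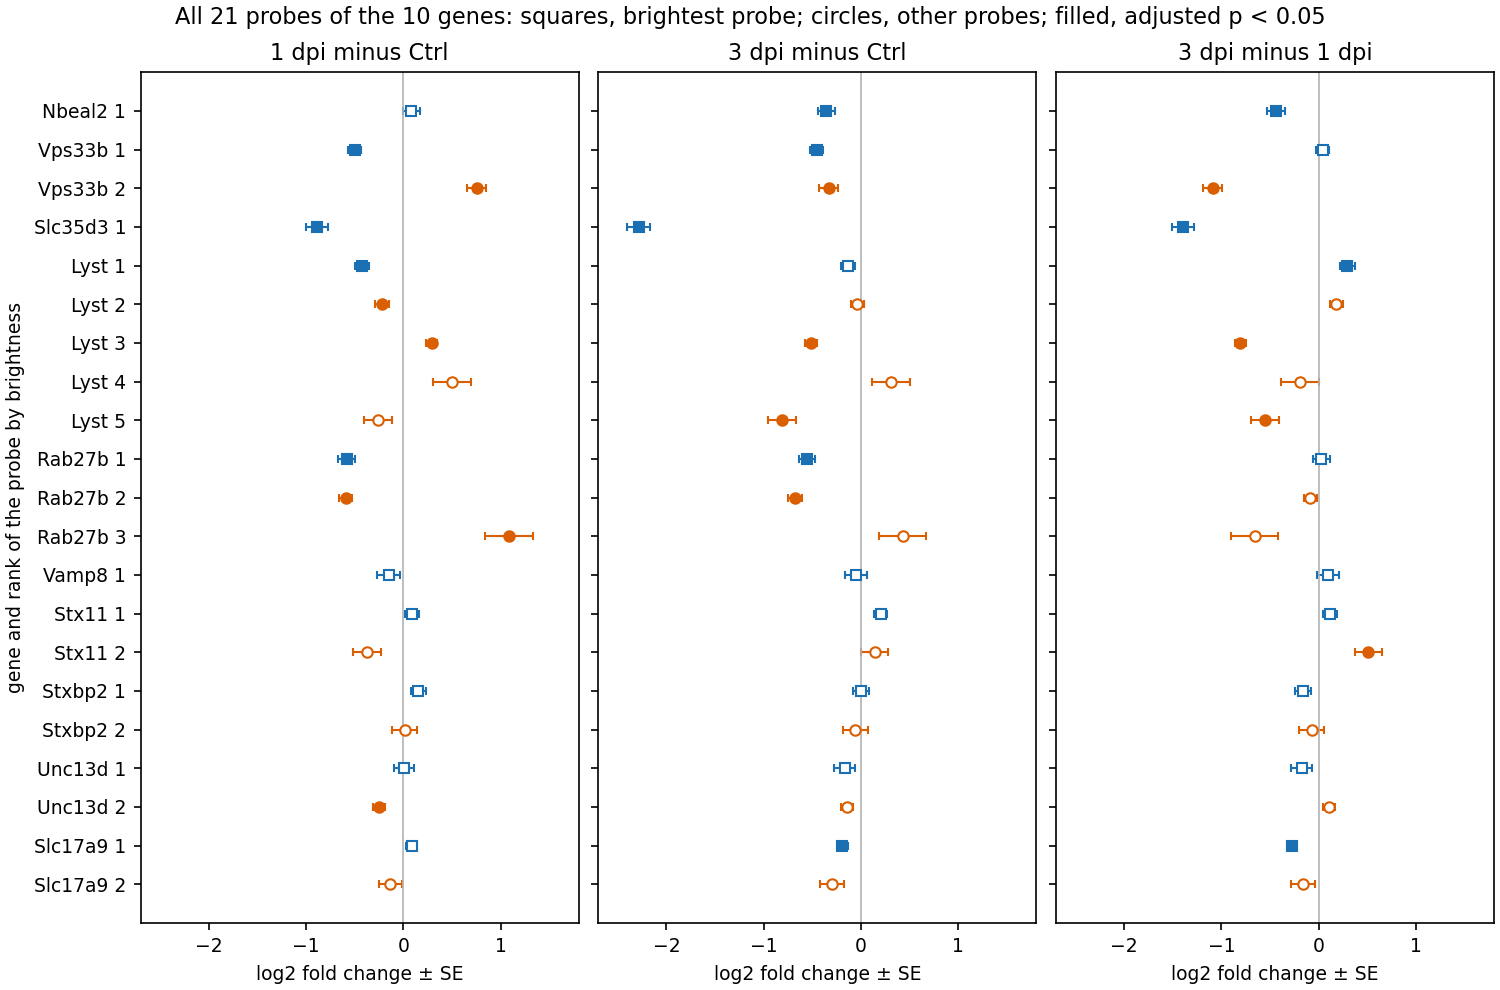
Log2 fold change with SE of all 21 probes of the 10 genes (horizontal axis), in 1 panel for each comparison, with probes of a gene ordered by brightness (vertical axis). Squares are the brightest probe, circles are other probes, and filled symbols passed the test. Dim probes of Vps33b, Lyst and Rab27b lie on the other side of 0 from the brightest probe at 1 dpi.

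Counted over all 21 probes, 7 fell and 3 rose at 1 dpi and 11 did not pass. At 3 dpi 9 fell, 0 rose and 12 did not pass. Of all 44300 probes, 34.8% passed as higher and 21.0% as lower at 1 dpi, and 16.0% and 16.9% at 3 dpi. Of the 7 genes with several probes, 6 held probes of unlike sign at 1 dpi and 2 at 3 dpi. The log2 table that the authors deposited has 1 row for each of the 10 genes, which matched quantile-normalized signal of a single probe to within 0.0021. For 4 genes it was the brightest probe, and for the other 6 (Vps33b, Lyst, Rab27b, Stx11, Stxbp2 and Slc17a9) it was a dimmer 1. In that table Rab27b was 0.55 higher at 1 dpi, with adjusted p = 0.0412, and Vps33b was 0.27 higher, with adjusted p = 0.217. With the mean of all probes standing for a gene, the 1 dpi differences of Vps33b (0.13, adjusted p = 0.168), Lyst (-0.02, adjusted p = 0.754) and Rab27b (-0.03, adjusted p = 0.823) did not pass, nor did that of Rab27b at 3 dpi (-0.27, adjusted p = 0.102). This mean turned Lyst from 1 to 3 dpi to -0.21, with adjusted p = 0.0246, and Vps33b to -0.52, with adjusted p = 0.00115.

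The related genes of the pathway were read from 4 lists that hold 83 genes besides the 10. All 83 were tested. At 1 dpi 18 rose and 30 fell, and at 3 dpi 15 rose and 17 fell. From 1 to 3 dpi 29 rose and 11 fell. Of all genes, 34.8% were higher and 21.1% lower at 1 dpi, 16.9% and 15.1% at 3 dpi, and 19.8% and 24.9% from 1 to 3 dpi. The medians were -0.09, -0.03 and 0.04, beside 0.25, 0.11 and -0.11 over all genes.

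Of the 23 other dense granule genes (the BLOC, HPS and AP-3 complexes and granule transporters), 13 fell and 3 rose at 1 dpi, with a median of -0.29, and 6 fell and 3 rose at 3 dpi, with a median of -0.03. Rab38, a GTPase of lysosome-related organelle biogenesis, fell by 1.16 (SE 0.05) at 3 dpi, with adjusted p = 3.56e-06, and was the 1 gene of this list called. Of the 22 other genes for SNAREs and their direct regulators, 9 fell and 4 rose at 1 dpi, and 3 fell and 3 rose at 3 dpi. From 1 to 3 dpi, 9 genes of this list were higher and 1 was lower. In that comparison 10 dense granule genes were higher and 6 lower. The counts were 4 and 0 for the tethering and BEACH domain list, and 6 and 4 for the RAB, effector and priming list.

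Of the 16 tethering and BEACH domain genes, 4 rose and 3 fell at 1 dpi, and 4 rose and 2 fell at 3 dpi. Nbea, a relative of Nbeal2, rose by 1.71 (SE 0.14) at 3 dpi, with adjusted p = 6.34e-05, and by 1.04 from 1 to 3 dpi. Its 3 probes did not move alike, with fold changes from 0.27 to 1.71 at 3 dpi and from -0.74 to 1.04 between the irradiated groups. Of the 22 other RAB, effector and priming genes, 7 rose and 5 fell at 1 dpi, and 5 rose and 6 fell at 3 dpi. Marcks, an actin-binding substrate of protein kinase C, rose by 1.22 (SE 0.06) at 3 dpi, with adjusted p = 4.53e-06. Cadps2, a priming factor, fell by 1.15 (SE 0.21) at 3 dpi, with adjusted p = 0.00474, and was well above background on all 3 arrays there. Its 3 dpi mean, -5.36, was no brighter than the -5.28 at 1 dpi, so background limits this size. At 1 dpi 12.3% of all genes were called higher and 2.87% lower. Of this list, 3 genes were called there, named here after their values were seen: Exph5 and Myrip were higher and Cadps2 was lower. No size is given, since they were near background, with Exph5 well above it on 2 and Myrip on 1 of the 3 Ctrl arrays, and Cadps2 on 2 of the 3 arrays at 1 dpi. Exph5 was also called lower from 1 to 3 dpi, with 2 of the 3 arrays at 3 dpi well above background.

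**Figure D4:**
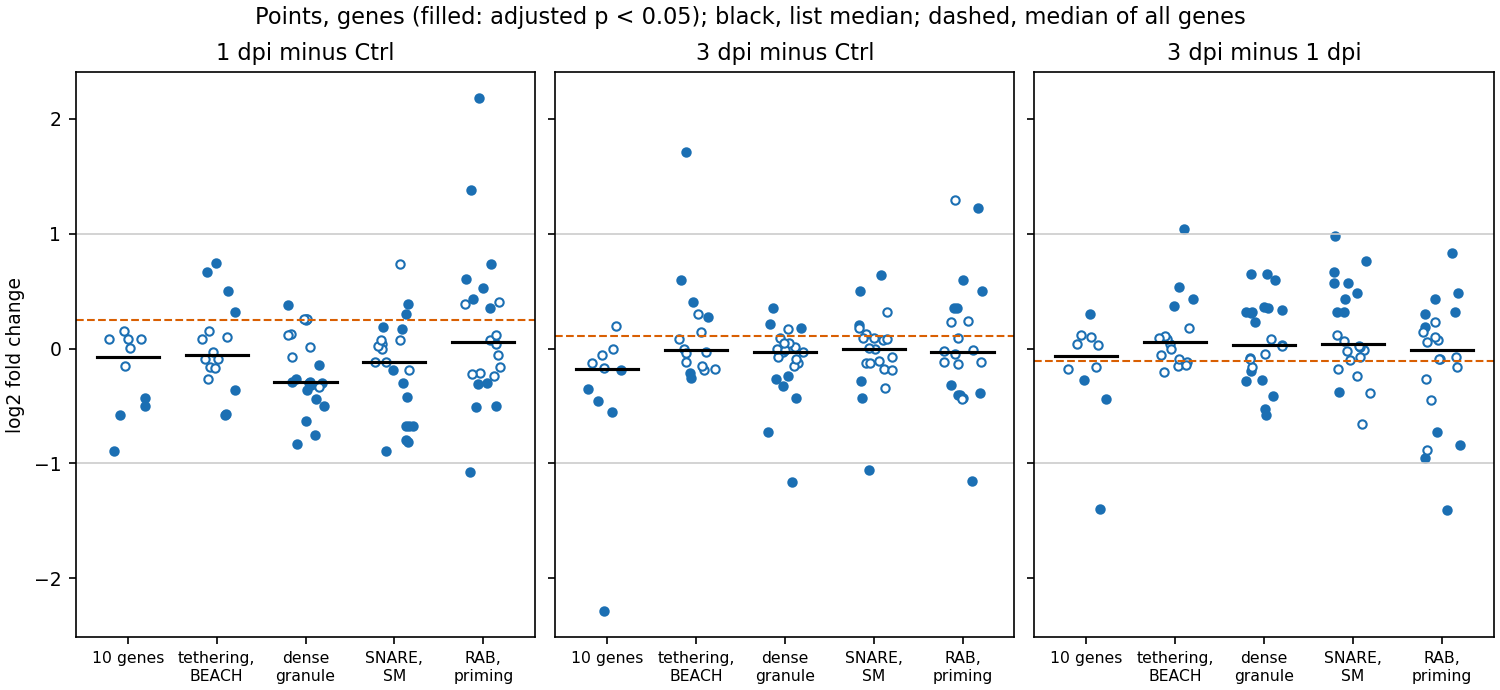
Log2 fold change (vertical axis) of the 10 genes and of the 4 pathway lists (horizontal axis), in 1 panel for each comparison. Points are genes, filled where they passed the test, black lines are list medians, and the dashed line is the median of all genes. Slc35d3, at -2.29, is the lowest point of the 3 dpi panel.

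Other genes followed single members over the 9 arrays, given as a description since all 9 arrays share the 3 group levels. The 3 genes with the highest Pearson r to Slc35d3 were Nol4l (0.995), Med12l (0.995) and Otos (0.995). Those for Vps33b were St3gal5 (0.998), Fam189b (0.997) and Tsga10 (0.996), and those for Nbeal2 were Bckdha (0.996), Def8 (0.988) and Taf4b (0.988). For Slc17a9 they were Gm30836 (0.991), Ehd3 (0.990) and Baiap3 (0.987), and for Rab27b Cbx7 (0.992), an unnamed transcript (0.992) and Neu3 (0.982). For Lyst they were an unnamed transcript (0.990), Traf3 (0.989) and Xpr1 (0.984). For the 4 genes that passed in 0 comparisons, the values were 0.984, 0.966 and 0.966 for Vamp8 (Ccnj, LOC102641654 and Mtdh), 0.975, 0.969 and 0.967 for Stxbp2 (Serf2, Gemin5 and Rbm42), and 0.973, 0.962 and 0.960 for Unc13d (Tomm40l, Mecom and 1700066J03Rik). For Stx11 they were 0.951, 0.928 and 0.925, with Pigf between 2 unnamed transcripts.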

How the data were processed

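RNA of mMKs was hybridized to 9 Agilent arrays, and the deposited intensity values are, per the file headers, spot signals that the authors obtained with Feature Extraction 10.7.1.1. The study's methods name an Affymetrix mouse gene chip instead, and the files were followed here. The deposited log2 table holds values that the authors normalized between arrays, and how was not stated in the sources used here. Its array medians were 5.84, 5.84 and 5.83 (Ctrl), 5.80, 5.80 and 5.79 (1 dpi), and 5.86, 5.86 and 5.87 (3 dpi). It matched quantile-normalized signal for the 10 genes, with no centring by gene. Of 62976 spots, 3671 controls were dropped, as were spots marked as outliers. Spots of a probe were averaged, leaving out 20 probes with no unmarked spot on some array. Log2 processed signal was scaled to the array's 75th percentile. A probe entered the fit if the 3 arrays of some group all marked it well above background. RefSeq accessions named 32994 of 56605 probes (GRCm38.p6 names), and the file's gene name the rest. The 3 groups were fitted in limma 3.58.1 (R 4.3.3) with eBayes and Benjamini-Hochberg adjustment over all 29410 genes, or over 44300 probes for the other probes. The fit was also run on values simulated around the scaled gene means. Fold changes came back without bias, as such draws must give, but some changed genes with a large spread between arrays were missed. A first criterion on the share recovered, which was not met, was then replaced. Scaling, the filter on dim probes and the choice of probe were not part of the simulation, so it cannot show bias from these. An exact permutation test of 3 against 3 arrays cannot go below p = 0.1. The number of arrays limits the precision. The genes named were the 10 members, up to 4 called genes for each pathway list and comparison, 3 correlated genes for each member, and the brightest gene of each marker list. Some genes that this rule names are not reported here. Members and lists were chosen with earlier results of these data known. Alternatives were 3 other scalings, the deposited table, other filters and probe rules, slide and replicate blocks, the methods' t-test and leaving out each array.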

Additional observations from a re-analysis of the deposited data

Results flagged for a closer look

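Effects at 1 and 3 dpi differed by the test of 3 dpi against 1 dpi for 4 of the 10 genes, 3 lower and 1 higher, while 24.9% of all genes were lower and 19.8% higher. The differences were -1.40 for Slc35d3, -0.44 for Nbeal2, -0.27 for Slc17a9 and 0.30 for Lyst. With the mean of all probes Lyst was -0.21 (adjusted p = 0.0246), and scaled to the array median Nbeal2 (-0.25, adjusted p = 0.267) and Slc17a9 (-0.08, adjusted p = 0.640) did not pass. The same held for the dimmer Vps33b probe (-1.09) and the third Lyst probe (-0.80), which rose at 1 dpi and fell at 3 dpi. Groups of 3 arrays were not tested for single arrays that stand apart. In the control spots, which no comparison used, the median spike-in intensity was 7045 at 1 dpi, above the 3900 of Ctrl, and 3849 at 3 dpi.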

How the results depend on the processing

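Slc35d3 kept its direction and passed the test in every comparison and under every alternative that gives a fold change, from -1.21 to -0.83 at 1 dpi, from -2.41 to -2.05 at 3 dpi and from -1.50 to -1.21 between the irradiated groups. It has only 1 probe, which the deposited table also holds. The mean of all probes and the deposited table thus could not test its choice of probe, as they did for genes with several probes. Of 570 values of the 10 genes under these alternatives, 42 changed sign, 7 of them with an adjusted p under 0.05 (given below), and with the same sign 15 lost and 15 gained an adjusted p under 0.05. The cause was not tested except where the alternative itself shows it. Scaling to the array median gave negative values at 1 dpi for Nbeal2 (-0.23), Stx11 (-0.23), Stxbp2 (-0.16), Unc13d (-0.31, adjusted p = 0.0311) and Slc17a9 (-0.23), and positive values from 1 to 3 dpi for Stxbp2 (0.034) and Unc13d (0.016). Relative to the median of all genes, Nbeal2 (-0.17), Stx11 (-0.16), Stxbp2 (-0.093), Unc13d (-0.24) and Slc17a9 (-0.16, adjusted p = 0.0302) were negative at 1 dpi. Quantile normalization turned Unc13d at 1 dpi (-0.0037) and Vps33b from 1 to 3 dpi (-0.0059), and normexp with quantile normalization did the same (-0.0043 and -0.0033).

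The deposited log2 values, which rest on other probes for 6 genes, turned Vps33b (0.27), Rab27b (0.55, adjusted p = 0.0412), Stx11 (-0.34), Unc13d (-0.0047) and Slc17a9 (-0.51, adjusted p = 0.0352) at 1 dpi and Rab27b (0.13) at 3 dpi. From 1 to 3 dpi they turned Vps33b (-0.86, adjusted p = 0.00417), Lyst (-0.33), Rab27b (-0.42) and Slc17a9 (0.059). The mean of all probes of a gene turned Vps33b (0.13), Stx11 (-0.14), Unc13d (-0.12) and Slc17a9 (-0.025) at 1 dpi, and Vps33b (-0.52, adjusted p = 0.00115), Lyst (-0.21, adjusted p = 0.0246) and Rab27b (-0.24) from 1 to 3 dpi. With it, Lyst and Rab27b at 1 dpi did not pass (-0.02 and -0.03). Slide as a block, equal to leaving out Ctrl replicate 1, turned Unc13d at 1 dpi (-0.094) and Vamp8 (0.073) and Stxbp2 (0.054) at 3 dpi. Leaving out each array in turn gave Unc13d from -0.094 to 0.064 at 1 dpi, and at 3 dpi Vamp8 from -0.12 to 0.073 and Stxbp2 from -0.050 to 0.054.

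Genes called numbered 4468, 2587 and 2588 at 1 dpi, at 3 dpi and between the irradiated groups. They were 1667, 1147 and 1088 with normexp and quantile normalization, 4489 between the irradiated groups with no filter on dim probes, and 16443, 9416 and 13125 with no minimum fold change. The methods' t-test passed 15674, 10523 and 16909 genes unadjusted, and 12626, 7120 and 14319 after Benjamini-Hochberg. Of the 10 genes, 4, 5 and 4 were called with no minimum fold change, 5, 6 and 4 by the methods' t-test unadjusted, and 4, 4 and 4 after adjustment. Scaled to the array median, or relative to the median of all genes, 1 was called at 1 dpi. Of genes called at 1 dpi 81.1% were higher, but 48.8% scaled to the array median, 56.3% with quantile normalization, 68.7% with normexp, 49.7% in the deposited table and 54.9% relative to the median of all genes. From 1 to 3 dpi this share was 45.2%, and 67.2%, 62.9%, 52.7%, 62.6% and 58.1% in that order, and 26.7% with no filter. At 3 dpi it was 79.4%, and 66.7% in the deposited table.

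Replicate numbers gave no pairing, since donors differed and deviations of same-numbered arrays correlated from -0.11 to 0.13. With the replicate block 4273, 2498 and 2494 genes were called, and no member changed its side of the threshold. Dim probes near background limit the values of Exph5, Myrip, Cadps2 and the dimmest Rab27b probe.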
